A study of Drosophila melanogaster with 7 samples.

Results

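Genes for the vitelline membrane and for yolk proteins were followed in RNA from sorted Drosophila melanogaster ovarian cells. The 10 genes were chosen by name: Vm26Aa, Vm26Ab, Vm32E, Vm34Ca, Vml, psd, dec, Yp1, Yp2 and Yp3. All 10 were found among the 13771 genes of the gene-level table, and all 10 were among the 10514 genes that passed the filter on low counts. The cells carried bamP-GFP, a green fluorescent reporter under the promoter of bam, and live GFP-positive cells were taken by flow cytometry from enzyme-dissociated ovaries. In the Atx2 KD group (4 libraries) a hairpin RNA against Atx2, the fly Ataxin-2 gene, was driven by nos-GAL4::VP16, which acts in the germline. In the Control KD group (3 libraries) the same driver expressed a hairpin against mCherry, and the labels name the cell type of both groups as germ cell. The labels give no age of the flies, and nothing in them says that libraries of a group came from separate dissections, so p-values measure the spread between these libraries, which may be technical.

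The vitelline membrane is the inner layer of the insect eggshell. Follicle cells, the somatic epithelium around each germline cyst, secrete its proteins during the middle stages of oogenesis, before they turn to the proteins of the outer chorion. Yolk proteins are made by the same follicle cells and by the fat body, and the oocyte takes them up by receptor-mediated endocytosis. These are therefore genes of the soma of growing egg chambers, whereas bam is active in early germline cysts of the germarium.

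The 10 genes lie at 7 places in the genome, on arm 2L and on X. Vm26Ab (2L, 5957004 to 5957639, plus strand) and Vm26Aa (2L, 5959596 to 5960340, minus strand) are 1956 bases apart, with only Vm26Ac between them. psd, or palisade (2L, 5963087 to 5964951, minus strand), follows 2746 bases further on. Vm32E (2L, 11171167 to 11171665) and Vm34Ca (2L, 13411141 to 13411631) are on the minus strand elsewhere on the arm, and Vm32E lies within Ca-beta without sharing an exon base with it. On X, Vml (2275822 to 2277781, plus strand) and dec (7867161 to 7873222, minus strand) are single genes. Yp1 (X, 10053811 to 10055498, plus strand) and Yp2 (X, 10050951 to 10052636, minus strand) point away from each other across 1174 bases with no annotated gene between, and Yp3 (X, 13759546 to 13761547, plus strand) is separate. Of the exon bases of Yp1, 875 (54.3%) are shared with an antisense RNA on the opposite strand, as are 323 (5.62%) of those of dec. The library kit was directional, but strand use in the authors' counting is not given in the sources used here, so reads of those overlaps cannot be told apart. Both sets are families of related genes, and how reads were divided among relatives was not assessed.

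The libraries held from 65262400 to 101810000 estimated counts, and the members held from 1159 counts (Vm32E, Atx2 KD replicate 1) to 935484 counts (Yp2, Control KD replicate 3), so counting error was small beside the spread between libraries. Atx2, the targeted gene, was at 245, 211, 269 and 209 CPM (estimated counts scaled to library size) in Atx2 KD, against 391, 445 and 424 CPM in Control KD, and fell by 0.85 ± 0.10 (SE) on the log2 scale (edgeR adjusted p 0.00166). bam was present in every library, at 42.7, 40.04, 35.99 and 48.7 CPM in Atx2 KD and 35.4, 32.2 and 35.5 CPM in Control KD. Markers of germline and of follicle cells were both present: tj, a transcription factor of somatic ovarian cells, had 238 to 306 TPM in Atx2 KD and 212 to 294 TPM in Control KD, beside 210 to 283 TPM and 222 to 298 TPM for the germline helicase gene vas. TPM is scaled for transcript length, so it compares genes with each other. The cells labelled as germ cells therefore also held somatic transcripts, in both groups.

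Per unit of length, the eggshell genes of Control KD were among the most abundant transcripts measured. Vm34Ca, a small structural protein of the vitelline membrane, was at 12021, 21128 and 23557 TPM in replicates 1 to 3 of Control KD, and ranked 2, 1 and 1 among all genes. In Atx2 KD it was at 1200.01, 6306, 3250.05 and 3013 TPM, with ranks of 118, 22, 88 and 91. Its Atx2 KD libraries all lay below all Control KD libraries, and replicate 1 was the lowest of its group in both. Vm26Aa, a second small structural protein, averaged 3175 ± 2131 TPM (SD, n = 4) in Atx2 KD and 12687 ± 3980.5 TPM (SD, n = 3) in Control KD. The lowest member was psd, whose product is needed for vitelline membrane proteins to assemble, at 96.5 ± 48.6 TPM (SD, n = 4) against 360.3 ± 102 TPM (SD, n = 3).

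The order of the members in TPM differed in part between the groups. In Control KD the mean TPM ran in the order Vm34Ca, Vm26Aa, Yp2, Vm26Ab, Yp1, Yp3, Vm32E, Vml, dec and psd. In Atx2 KD, Yp2 stood first at 3482 ± 1859 TPM (SD, n = 4), close to Vm34Ca at 3442 ± 2117 TPM (SD, n = 4), and was above Vm34Ca in 2 of 4 libraries. In CPM, which is not scaled for length, Yp2 was the highest member in every library of both groups. Vm26Ab and Yp1 changed places throughout. Vm26Ab was above Yp1 in 3 of 3 Control KD libraries, and Yp1 above Vm26Ab in 4 of 4 Atx2 KD libraries. Neighbours in the Control KD order overlapped in their ranges for 7 of 9 pairs, the exceptions being Yp3 above Vm32E and dec above psd. Within single libraries the Control KD order was firmer, and only Yp2 against Vm26Ab and Vm32E against Vml changed places, each in 1 of 3 libraries. In Atx2 KD all 9 neighbouring pairs overlapped, since every member varied several-fold between those libraries.

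**Figure D1:**
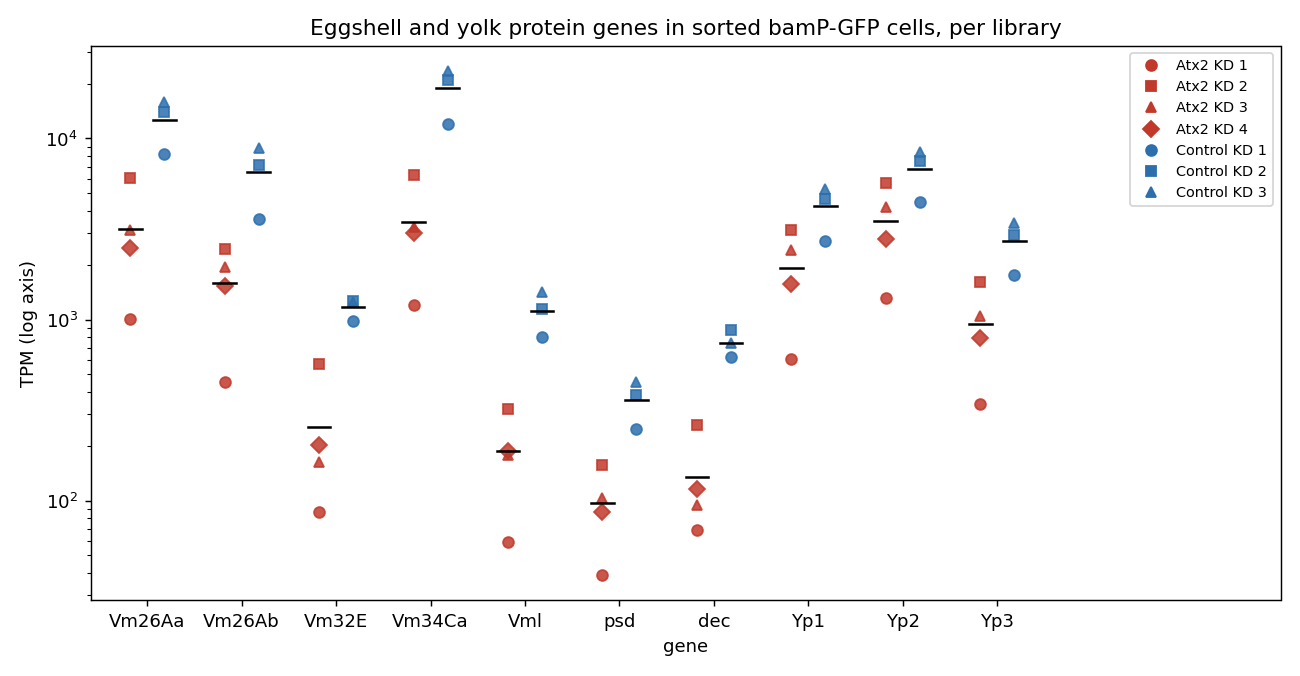
TPM of each gene on a log axis in every library, with Atx2 KD (red, 4 libraries) left of Control KD (blue, 3 libraries), a marker shape for each replicate number and a black bar at the group mean. Atx2 KD replicate 1 is the lowest and replicate 2 the highest of its group for all 10 genes. The groups overlap for Yp1 and Yp2 only, while those of Yp3 overlap in CPM but not in TPM.

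All 10 genes had a lower estimate in Atx2 KD. At an adjusted p under 0.05 in edgeR's quasi-likelihood test over all genes, 6 of 10 fell: Vm26Ab, Vm32E, Vm34Ca, Vml, psd and dec. Of all tested genes, 7.67% (806) were called lower and 5.61% (590) higher. Upper-quartile scaling called 600 lower and 811 higher, with the same number of members lower. All 10 passed once the replicate number was added as a block, when 14.2% of all genes were lower and 13.8% higher. That fit compares same-numbered libraries only, so Atx2 KD replicate 4, which has no Control KD partner, adds nothing to its estimates. It also fits terms for the replicate numbers, which leaves few degrees of freedom for the spread. Its smaller SEs and adjusted p rest on that. Without the block the median log2 fold change of the 10 was -1.96, against 0.006 over all tested genes. In CPM, 7 of the 10 had every Atx2 KD library below every Control KD library, as did 15.1% of tested genes. The members were picked with earlier results of these data known, so these counts describe them and test nothing about the list. In these bulk samples, fewer cells of a type and less RNA per cell cannot be told apart.

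Among the vitelline membrane genes, Vml had the largest estimate. Vml, a longer member of the family, was at 72.7, 473, 237 and 239 CPM in Atx2 KD replicates 1 to 4, against 1006, 1636 and 1912 CPM in Control KD replicates 1 to 3. The highest Atx2 KD library was still less abundant than the lowest Control KD library, and Vml fell by 2.57 ± 0.50 (SE) on the log2 scale (edgeR adjusted p 0.0130). Vm34Ca had 225, 1490, 675 and 584 CPM in Atx2 KD and 2336, 4645 and 4809 CPM in Control KD. It fell by 2.40 ± 0.53 (SE) on the log2 scale, edgeR adjusted p 0.0206. Vm32E, which encodes the smallest of these proteins, had 13.3, 110, 27.8 and 32.02 CPM in Atx2 KD and 156, 236 and 214 CPM in Control KD. Vm32E fell by 2.14 ± 0.59 (SE) on the log2 scale (edgeR adjusted p 0.0438), and its Control KD libraries were the tightest of all members, within 1.51-fold of each other. For this gene Atx2 KD replicate 2 was 8.30 times replicate 1, the widest range of the set.

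The neighbours Vm26Ab, Vm26Aa and psd had estimates of similar size. This was not particular to neighbours, since Vm32E, elsewhere on the arm, was at -2.14 ± 0.59 (SE). Vm26Ac, which lies among them, was at -2.37 ± 0.65 (SE). Vm26Ab was at 130, 888, 624 and 450.4 CPM in Atx2 KD, against 1036, 2380.1 and 2794 CPM in Control KD. Vm26Ab fell by 1.98 ± 0.55 (SE) on that scale (edgeR adjusted p 0.0442). Vm26Aa was at 305, 2291, 1032 and 776 CPM in Atx2 KD, against 2488, 4868 and 5214 CPM in Control KD. The 2 groups of Vm26Aa did not overlap, but Atx2 KD replicate 2 was only just below Control KD replicate 1, and the estimate of -1.93 ± 0.55 (SE) missed the threshold at an edgeR adjusted p of 0.0506. With the block, Vm26Aa passed, at -2.16 ± 0.30 (SE) and an adjusted p of 0.00128. psd was at 31.4, 150.4, 91.2 and 71.9 CPM in Atx2 KD, against 205, 356 and 394 CPM in Control KD, and fell by 1.89 ± 0.43 (SE) on the log2 scale, edgeR adjusted p 0.0248. The ratio of Vm26Aa to Vm26Ab in log2 CPM averaged 1.03 ± 0.32 (SD, n = 4) in Atx2 KD and 1.07 ± 0.18 (SD, n = 3) in Control KD, and its groups overlapped.

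dec, or defective chorion 1, encodes several secreted proteins that are cut and built into the eggshell. It was at 194, 841, 287 and 333 CPM in Atx2 KD, against 1759, 2804 and 2218 CPM in Control KD. The groups did not overlap, and dec fell by 2.45 ± 0.44 (SE) on the log2 scale, with the smallest edgeR adjusted p of the members, 0.00953.

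The yolk protein genes had smaller estimates, and none of the 3 passed without the block. Yp1 was at 624, 3891, 2716 and 1666 CPM in Atx2 KD, against 2862, 5586 and 5955 CPM in Control KD. Yp2 was at 1353, 7013, 4650 and 2960.3 CPM in Atx2 KD, against 4670, 8939 and 9450 CPM in Control KD. Yp3 was at 331, 1893, 1106 and 785 CPM in Atx2 KD, against 1722, 3289 and 3638 CPM in Control KD. For each of them Atx2 KD replicate 2 stood above Control KD replicate 1, so the groups overlapped in CPM. In TPM the groups of Yp3 did not overlap, at 1612 TPM in Atx2 KD replicate 2 and 1754 TPM in Control KD replicate 1. The log2 fold changes were -1.11 ± 0.51 for Yp1, -0.94 ± 0.47 for Yp2 and -1.49 ± 0.49 for Yp3 (SE), with edgeR adjusted p of 0.175, 0.210 and 0.0752. At an unadjusted p under 0.05, 1 of the 3 was lower (Yp3), and DESeq2 called 0. With the block the values were -1.28 ± 0.25, -1.05 ± 0.22 and -1.63 ± 0.24 (SE), with adjusted p of 0.00696, 0.00842 and 0.00167.

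**Figure D2:**
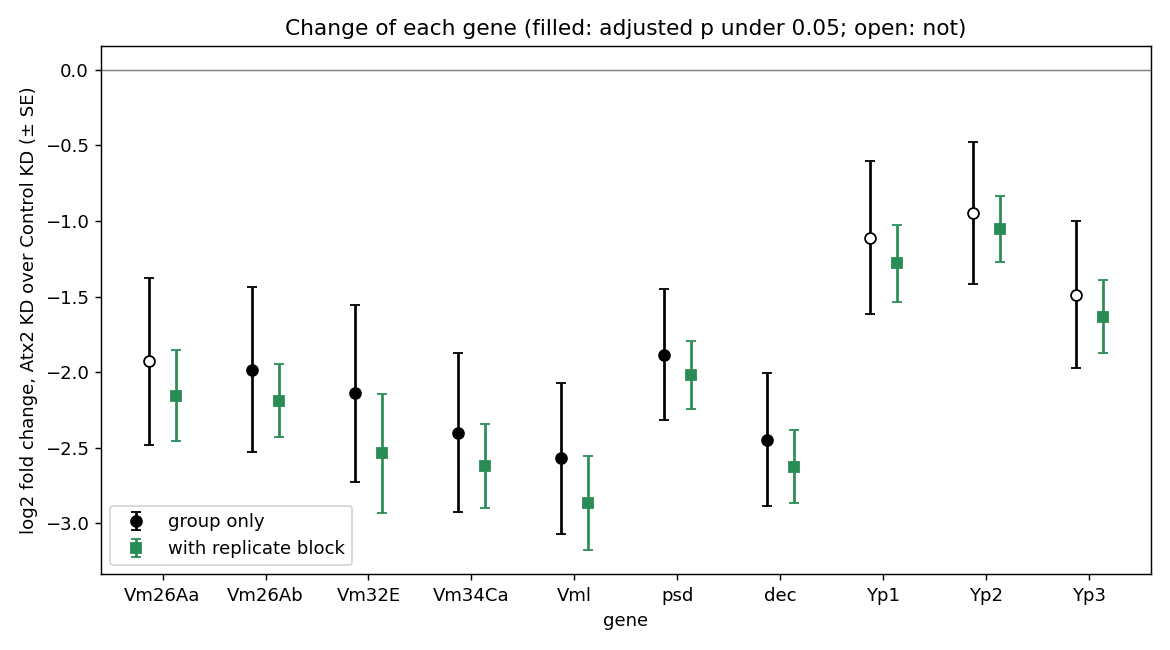
Log2 fold change of Atx2 KD over Control KD for each gene, with its SE, from the edgeR fit with group only (black circles) and with the replicate number as a block (green squares); filled symbols have an adjusted p under 0.05. All 20 estimates are below 0, and the 3 yolk protein genes are the closest to it.

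The number of calls changed with the libraries used, for the members and for all tested genes. Without Control KD replicate 2 only dec passed, at an edgeR adjusted p of 0.0461, and 1 of 10 members was called. Vml then had 0.0524, Vm34Ca 0.0750 and psd 0.0866. Without Atx2 KD replicate 3 or without Atx2 KD replicate 4, 2 members passed (Vml and dec), and without Control KD replicate 1 or 3, 4 passed. Without Atx2 KD replicate 1, 5 passed, and without Atx2 KD replicate 2, the library with the highest levels, 8 passed. Of all tested genes, 7.67% were lower with all libraries, against 2.64% without Control KD replicate 2 and 2.67% without Control KD replicate 1. The share was 4.33% and 4.39% without Atx2 KD replicates 3 and 4, and 5.49% and 6.65% without Atx2 KD replicates 1 and 2. It was 7.92% without Control KD replicate 3, and 3.17% with only the libraries numbered 1 and 2. Within the libraries numbered 1 and 2 alone, edgeR called 0 of 10, with 4 at an unadjusted p under 0.05, and the 10 estimates lay between -2.28 and -0.71. In mean log2 CPM the difference of each member was between -2.79 and -1.07 among the libraries numbered 1 and 2. It was between -3.01 and -1.35 among those numbered 3 and 4, where 1 Control KD library allows no test.

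Levels of the 10 genes varied together from library to library. The order of replicates within Atx2 KD was 2, 3, 4, 1 from high to low for 7 genes. For Vm32E, Vml and dec it was 2, 4, 3, 1. Within Control KD it was 3, 2, 1 for 8 genes, and 2, 3, 1 for Vm32E and dec. Replicate 1 was thus the lowest library of either group for all 10 genes. Paired by number, the differences in log2 CPM were largest in number 1, from -3.79 (Vml) to -1.79 (Yp2), smallest in number 2, from -1.79 (Vml) to -0.35 (Yp2), and between -3.01 (Vml) and -1.02 (Yp2) in number 3. In each of the 3 pairs Vml had the largest fall and Yp2 the smallest.

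Most of the spread within a group was shared. The SD of log2 CPM between libraries of Atx2 KD had a median of 1.12 over the 10 genes, and ranged from 0.90 (dec) to 1.27 (Vm32E). In Control KD the median was 0.58, with 0.31 (Vm32E) the lowest and 0.77 (Vm26Ab) the highest. Across all tested genes with a mean of at least 5 CPM the medians were 0.13 in Atx2 KD and 0.11 in Control KD. After the mean of the other 9 genes was subtracted in each library, the median SD of the members was 0.20 in Atx2 KD and 0.08 in Control KD. dec and Vm32E kept the most spread of their own in Atx2 KD. dec relative to the mean of the 10 was at 0.24, -0.25, -0.81 and -0.31 in log2 CPM in Atx2 KD replicates 1 to 4, against 0.52, 0.31 and -0.08 in Control KD. No correlation is given, since the groups form separate sets of libraries.

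Together the 10 genes held 0.337, 1.89, 1.14 and 0.806% of the estimated counts in Atx2 KD, against 1.87, 3.36 and 3.56% in Control KD. Atx2 KD replicate 2 and Control KD replicate 1 met at the boundary of the groups. The vitelline membrane genes and dec accounted for 0.317 ± 0.219% (SD, n = 4) in Atx2 KD and 1.42 ± 0.437% (SD, n = 3) in Control KD, without overlap. The yolk protein genes accounted for 0.726 ± 0.440% and 1.51 ± 0.490%, with overlap.

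Relative to one another, the eggshell and yolk genes did not keep their proportions. All 21 ratios of 1 of the 7 eggshell genes to 1 of the 3 yolk protein genes were lower in every Atx2 KD library than in every Control KD library. The differences in mean log2 ratio ran from -1.69 (Vml over Yp2) to -0.36 (psd over Yp3). Among the other 10513 tested genes, members included, 0.124% had such a ratio to Yp1, 0.200% to Yp2 and 0.0951% to Yp3. That is 13, 21 and 10 genes, of which 8, 9 and 7 were members. The yolk protein genes varied 5.19-fold (Yp2) to 6.24-fold (Yp1) within Atx2 KD, and their groups overlapped in CPM. A gene that did not vary with them could therefore hardly show such a separation. Low shares thus follow from the measure, and do not show how unusual the members are. In log2 CPM, Vm34Ca over Yp2 was -2.59, -2.23, -2.78 and -2.34 in Atx2 KD replicates 1 to 4, against -0.999, -0.94 and -0.97 in Control KD. This ratio had an SD of 0.03 among the Control KD libraries, while the genes themselves differed by 2.06-fold and 2.02-fold there. It was at its Atx2 KD level also in replicate 2, where Yp2 was above a Control KD library.

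The yolk protein genes also shifted among themselves. The log2 CPM ratio of Yp3 to Yp1 was -0.91, -1.04, -1.30 and -1.09 in Atx2 KD, against -0.73, -0.76 and -0.71 in Control KD. The ratio of Yp2 to Yp1, the neighbouring pair, was 1.12, 0.85, 0.78 and 0.83 in Atx2 KD and 0.71, 0.68 and 0.67 in Control KD. Neither set overlapped, so relative to Yp1, Yp2 was high and Yp3 low in Atx2 KD. Yp3 to Yp1 is among the 0.124% given above and Yp1 to Yp2, the second ratio turned over, among the 0.200%. The limit given there for those shares holds here too. These ratios are descriptions of members chosen with results known, and no test was made on them.

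**Figure D3:**
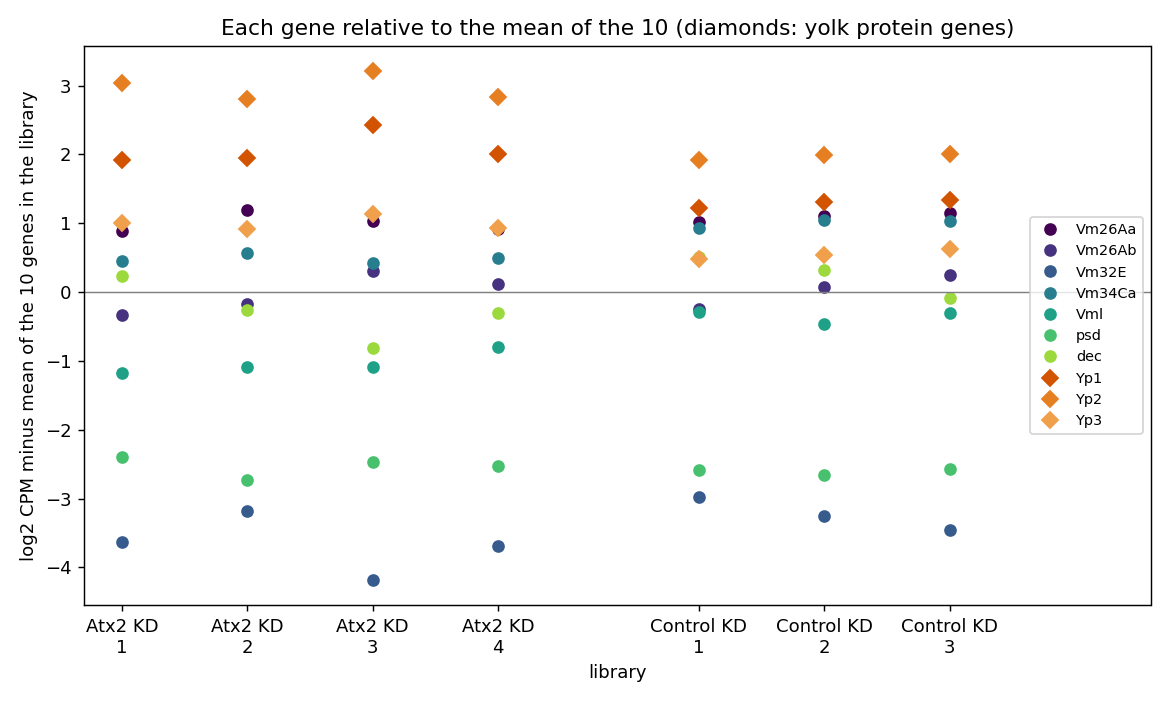
Log2 CPM of each gene minus the mean of the 10 genes in the same library, for the 4 Atx2 KD libraries (left) and the 3 Control KD libraries (right); diamonds are yolk protein genes. Yp1, Yp2 and Yp3 stand higher in Atx2 KD, and Vm34Ca and Vml lower, without overlap.

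At the transcript level 22 of the 23 annotated transcripts of the members were tested and 8 were lower at an edgeR adjusted p under 0.05, beside 2.66% of all tested transcripts. With the block 4 passed (dec-RB, dec-RG, psd-RA and Vm26Ab-RA), beside 1.68%, and dec-RC, Yp1-RB, Vm32E-RB, Vml-RA and Vml-RB no longer did. Without Control KD replicate 2, 0 passed, with 13 at an unadjusted p under 0.05, and without Atx2 KD replicate 2, 11 passed. Reads are divided among near-identical models by Salmon, so these counts and shares depend on that division.

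The transcripts of dec differ in their coding sequence. dec-RC (FBtr0071147, 2850 coding bases) made up most of the gene, with 70.2, 83.4, 73.3 and 72.9% of its estimated counts in Atx2 KD and 85.8, 85.5 and 84.97% in Control KD. dec-RA (FBtr0071145, 4770 coding bases), which keeps as exon a stretch that dec-RC splices out, made up 11.2, 5.84, 11.1 and 7.66% in Atx2 KD, against 2.34, 2.40 and 2.95% in Control KD. Neither pair of ranges overlapped. Such separation was not rare: of 17147 tested transcripts in genes with several listed transcripts, 9.30% had a higher share in every Atx2 KD library and 8.69% a lower one, against 5 and 4 of the 21 such transcripts of the members. Shares within a gene sum to a whole, so these are not independent. dec-RC had a log2 fold change of -2.57 ± 0.54 (SE), edgeR adjusted p 0.0421, and dec-RA one of -0.85 ± 0.30 (SE), adjusted p 0.153. With the block dec-RC missed the threshold, at an adjusted p of 0.0505. dec-RB (FBtr0071146, 3624 coding bases) made up 12.2 ± 2.98% (SD, n = 4) in Atx2 KD and 9.08 ± 0.524% (SD, n = 3) in Control KD, with overlap. dec-RE was listed at 0 in every library. In Atx2 KD, dec-RA had its lowest share in replicate 2, the library with the most dec.

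In other genes, models with the same coding length but different ends also shifted. Vm26Ab-RB, which runs 636 bases against 625 for Vm26Ab-RA, held 14.6, 19.99, 14.9 and 13.9% of the gene in Atx2 KD and 6.35, 6.15 and 10.2% in Control KD. Yp2-RB, the model with the more distal end, held 15.7, 14.01, 15.1 and 16.01% in Atx2 KD, against 12.3, 10.95 and 12.2% in Control KD. The longer model of Vm26Aa held 0.718 ± 0.0986% (SD, n = 4) in Atx2 KD and 0.449 ± 0.0292% (SD, n = 3) in Control KD. For these 3 genes the longer, minor model thus had a larger share in every Atx2 KD library than in any Control KD library. This separation is to be read against the 9.30% of transcripts given above. For psd, Vm32E, Vml, Yp1 and Yp3 the shares overlapped between the groups. Vm34Ca has 1 annotated transcript.

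**Figure D4:**
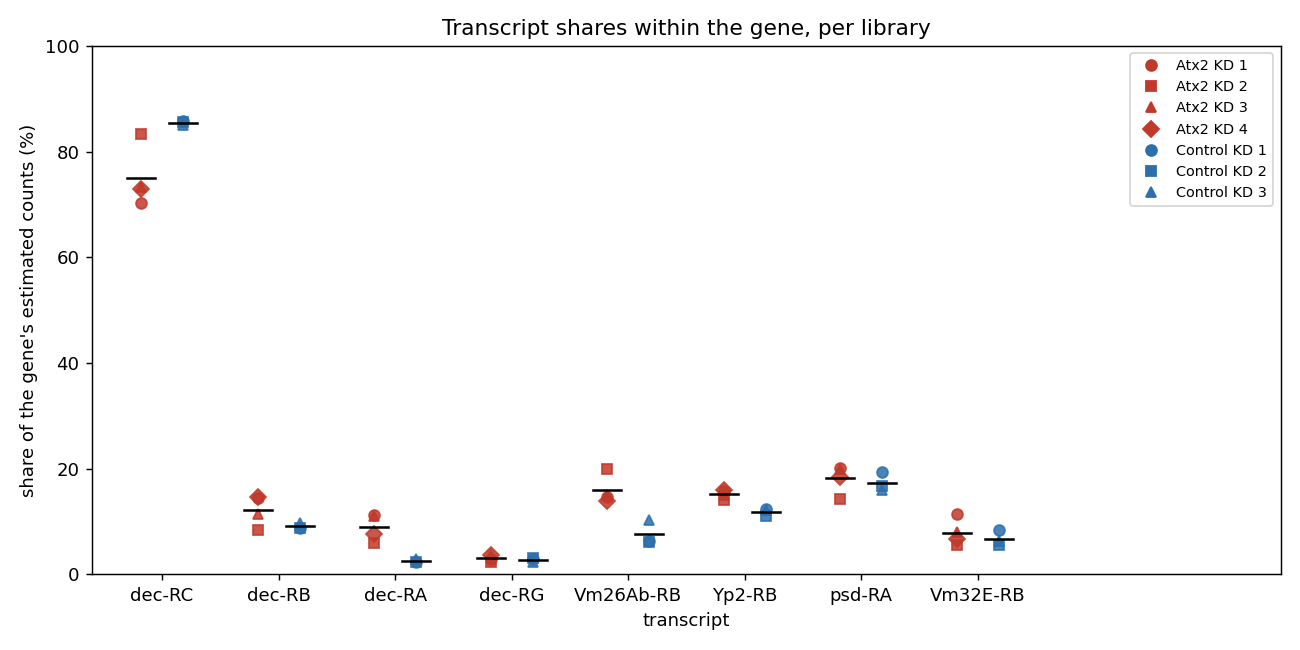
Share of a gene's estimated counts assigned to each of 8 transcripts, in percent, with Atx2 KD (red) left of Control KD (blue) and a black bar at the group mean. dec-RC is lower and dec-RA, Vm26Ab-RB and Yp2-RB are higher in all 4 Atx2 KD libraries, while psd-RA and Vm32E-RB overlap.

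Genes of the outer eggshell followed another order of libraries in Control KD, but had the same highest library in Atx2 KD for most. Of 12 chorion genes and relatives, which follicle cells express in late oogenesis, edgeR called 0 in either direction, with 3 lower at an unadjusted p under 0.05, 0 by DESeq2, 1 lower by limma on log2(TPM + 1) and 6 lower with the block. All 12 estimates were negative, between -3.30 and -0.94, with a median of -2.17. Cp38, a chorion structural protein, was at 0.324, 46.6, 0.0540 and 3.77 TPM in Atx2 KD, against 298, 119 and 4.42 TPM in Control KD, a far wider range than any member had. Control KD replicate 3, the highest library for 8 members, was the lowest Control KD library for all 12 of these genes, and Control KD replicate 1, the lowest for the members, was the highest for 10 of them. Within Atx2 KD, replicate 2 was the highest library for 10 of the 12, as for all 10 members. Levels of the vitelline membrane genes in Control KD thus did not rise with those of chorion genes.

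Other genes of vitelline membrane and eggshell assembly were lower in 6 of 11 cases and higher in 0, against 7.67% and 5.61% of tested genes. Their median log2 fold change was -0.71, and with the block 8 were lower, pip (adjusted p 0.00223) and tsl (0.0325) being added. Vm26Ac, the small gene between Vm26Ab and Vm26Aa, had 1.73, 12.6, 1.63 and 2.90 CPM in Atx2 KD and 25.98, 29.1 and 18.4 CPM in Control KD. It fell by 2.37 ± 0.65 (SE) on the log2 scale, edgeR adjusted p 0.0447, and Atx2 KD replicate 2 was its highest Atx2 KD library, as for the members. ndl (nudel), a follicle cell protease of the eggshell, had 332 ± 95.97 CPM in Atx2 KD (SD, n = 4) and 749.5 ± 183 CPM in Control KD (SD, n = 3), a log2 fold change of -1.18 ± 0.24 (SE), adjusted p 0.0160.

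Eggshell genes that are expressed in the germline fell too. clos (closca) averaged 79.3 ± 15.4 CPM (SD, n = 4) in Atx2 KD and 196 ± 41.9 CPM (SD, n = 3) in Control KD, a log2 fold change of -1.30 ± 0.18 (SE), edgeR adjusted p 0.00289. fs(1)M3 and fs(1)N had log2 fold changes of -0.88 ± 0.12 and -0.71 ± 0.12 (SE), edgeR adjusted p 0.00331 and 0.00779. fs(1)M3 was at 114, 121, 101 and 119.9 CPM in Atx2 KD, so replicate 1 was not set apart in this gene as it was in the members. Pxt, a cyclooxygenase-like peroxidase, fell by 0.52 ± 0.12 (SE), edgeR adjusted p 0.0221. Cad99C, pip, wbl, sll and tsl did not pass, with estimates between -0.75 and -0.20.

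Genes for uptake of yolk had estimates nearer 0. Their summed level was still lower in every Atx2 KD library, at 1078 to 1119 TPM against 1162 to 1243 TPM in Control KD. yl (yolkless), the yolk protein receptor of the oocyte, was at 191, 174, 148 and 178 TPM in Atx2 KD, against 271, 213 and 197 TPM in Control KD. Its log2 fold change of -0.40 ± 0.12 (SE) had an edgeR adjusted p of 0.0508, and 0.00505 with the block. Of the 9 genes tested in this list, Rab11, a recycling endosome gene, was lower (-0.35 ± 0.09, edgeR adjusted p 0.0386) and 0 were higher, beside a list median of -0.12. With the block 3 were lower (Rab11, yl and Rab5, the last at an adjusted p of 0.0182) and AP-2sigma was higher (0.0270). Of all tested genes, 7.67% were lower and 5.61% higher, and with the block 14.2% and 13.8%. boca, which encodes a chaperone for receptors of the family of yl, stood at 0.005 ± 0.15 (SE), adjusted p 0.987.

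Of 14 tested genes in a list of sex and hormone regulators, 0 were lower and 1 was higher, against 7.67% and 5.61% of all tested genes. The list median was -0.03, and whether each gene acts on yolk protein genes was not tested. With the block 2 were lower (slbo and tra2) and 3 were higher (fru, dsx and tra), beside 14.2% and 13.8% of all tested genes. At an unadjusted p under 0.05, 2 were lower and 3 higher, and DESeq2 called 1 lower and 2 higher. fru was higher (0.65 ± 0.16, edgeR adjusted p 0.0348). dsx, whose female product acts on the yolk protein genes directly, had an estimate of 0.55 ± 0.17 (SE), edgeR adjusted p 0.0632, and 0.000610 with the block. The ecdysone receptor genes EcR and usp stood at 0.04 ± 0.10 and -0.06 ± 0.08 (SE), adjusted p 0.827 and 0.642.

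Markers of follicle cells moved less than the members. Their summed level was 709 to 982 TPM in Atx2 KD and 690.3 to 890 TPM in Control KD. Of 12 tested, 1 was lower (ttk) and 3 were higher (Fas3, ct and eya), with slbo also lower under the block. The shares among all tested genes were 7.67% lower and 5.61% higher, and 14.2% and 13.8% with the block. tj, the marker named above, stood at 0.12 ± 0.13 (SE), edgeR adjusted p 0.586. Mean log2 CPM of the members minus that of the 12 markers was 0.49, 3.18, 1.88 and 1.76 in Atx2 KD, against 3.70, 4.44 and 4.09 in Control KD. The groups did not overlap, so in each library of Atx2 KD the members were low also beside the mean of these markers. The markers did not move as one, with log2 fold changes from -0.88 (slbo) to 0.81 (ct). Their mean therefore does not stand for a single kind of follicle cell. slbo, a border cell gene that is both a follicle marker and a regulator in these lists, was at 2.28, 6.05, 8.66 and 3.63 TPM in Atx2 KD, against 4.14, 10.5 and 13.5 TPM in Control KD, edgeR adjusted p 0.272, and 0.000411 with the block.

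Markers of other cells moved as well. Their counts are to be read beside 7.67% lower and 5.61% higher among all tested genes, or 14.2% and 13.8% with the block. Of 13 germline markers 5 were lower (otu, ovo, AGO3, orb and bcd) and 1 was higher (bgcn), with aub, osk and grk also lower under the block (adjusted p 0.0150, 0.0188 and 0.0157). Their sum was 1522 to 1984 TPM in Atx2 KD and 1930.4 to 2609 TPM in Control KD. Of 8 ovarian muscle markers 6 were higher (Mhc, Mlc1, Mlc2, up, wupA and Act57B) and 0 lower, and their sum was 552 to 754 TPM in Atx2 KD and 408 to 534 TPM in Control KD. All 6 hemocyte markers had positive estimates, with a median log2 fold change of 1.27 and sums of 69.6 to 166 TPM in Atx2 KD and 43.8 to 81.4 TPM in Control KD. Pxn was higher, 4 of the 6 were at an unadjusted p under 0.05, and with the block 4 were higher (Pxn, Hml, eater and NimC1, adjusted p at most 0.000228). Fat body, the other source of yolk protein RNA, had positive estimates for all 6 tested markers, with a median log2 fold change of 1.03 and sums of 63.9 to 89.2 TPM in Atx2 KD and 44.6 to 66.9 TPM in Control KD. apolpp was higher, at 4.39 to 6.71 TPM in Atx2 KD and 1.69 to 2.68 TPM in Control KD, and with the block Apoltp (adjusted p 0.000397) and FASN1 (0.0348) were higher too. Most of the sum was FASN1. Apoltp was at 0.378 to 1.06 TPM in Atx2 KD and 0.169 to 0.401 TPM in Control KD, and Fbp1, Fbp2, Lsp2, Lsp1beta and to were each under 1 TPM in every library. Of 4 tested oviduct and spermatheca markers lz was lower, at only 0.130 to 0.234 TPM in Atx2 KD and 0.302 to 0.511 TPM in Control KD. Its call was lost in 5 of 16 alternative analyses. Send1 was at 0 in every library, and the sums of the oviduct and spermatheca markers were 21.03 to 27.5 TPM in Atx2 KD and 23.4 to 28.97 TPM in Control KD. The part of these other cells in the results on the members was not tested.

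**Figure D5:**
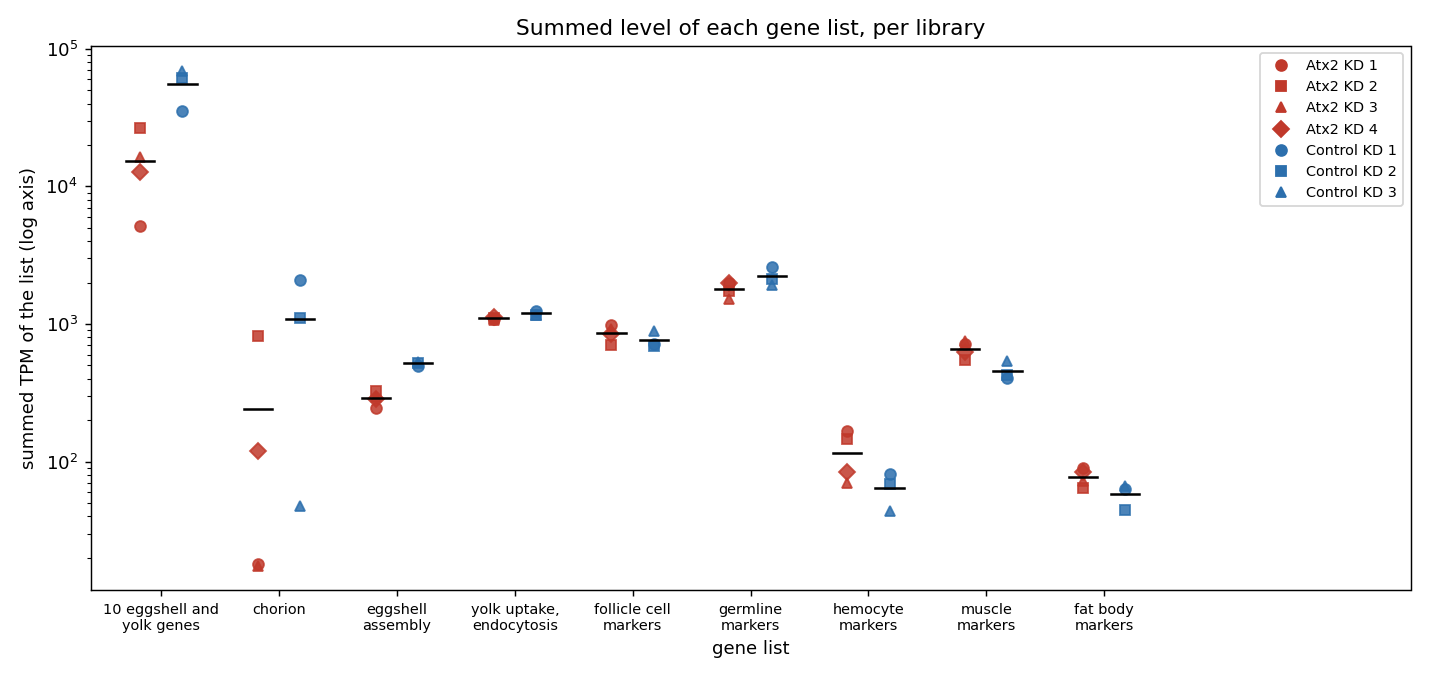
Summed TPM of the 10 genes and of 8 gene lists on a log axis, with Atx2 KD (red, 4 libraries) left of Control KD (blue, 3 libraries) and a black bar at the group mean. The 10 genes and the eggshell assembly list are lower in all 4 Atx2 KD libraries, the chorion sum spans a wide range in both groups, and the follicle cell marker sums overlap.

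Several other genes had a profile close to that of the members. Likeness was measured as the root mean square difference in log2 CPM between a gene and the mean of the 10, each centred on its own mean over the 7 libraries, among 7229 other genes with a mean of at least 5 CPM. The 8 closest were St4, Hr3, CG12398, Hr4, CG32137, CG31869, Ir7c and CG46321, at differences from 0.24 to 0.53, and the members themselves were at 0.12 (Vm26Aa and psd) to 0.57 (Yp2) from the mean of the other 9. St4, a sulfotransferase gene, was at 2.27, 10.7, 5.91 and 3.89 CPM in Atx2 KD, against 13.4, 24.2 and 18.4 CPM in Control KD. Hr3, a nuclear receptor of the ecdysone response, was at 7.86, 36.4, 28.1 and 24.7 CPM in Atx2 KD, against 37.9, 76.5 and 112 CPM in Control KD. Hr4, a second such receptor, was at 15.4, 35.7, 30.6 and 29.8 CPM in Atx2 KD, against 55.6, 80.6 and 119.9 CPM in Control KD. For Hr3 and Hr4, as for 8 members, Control KD replicate 3 was the highest library, and for all 3 of these genes Atx2 KD replicate 1 was the lowest. The likeness uses the same libraries and normalization as the members and carries no test.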

How the data were processed

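Estimated counts and TPM per gene and per transcript were deposited by the authors as Salmon output, not normalized between libraries, per the file headers. Per the submitters' processing notes, bcl2fastq 2.20, Trim Galore 0.6.7, cutadapt 2.10 and Salmon 1.9.0 were used. The index, genome build and strand setting are not given in the sources used here. TPM values deposited by the authors are scaled for length and to a common total. Libraries were made from total RNA after ribosomal RNA depletion, without poly(A) selection, per the labels' protocols.

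Estimated counts were rounded, filtered with filterByExpr (minimum count 10, minimum total 15), scaled by TMM and fitted in edgeR 4.0.16 (R 4.3.3) with 1 coefficient for the knockdown. Its two-sided quasi-likelihood test was adjusted by Benjamini-Hochberg over all genes or transcripts, with calls at 0.05. The SE is the size of the log2 fold change over the square root of F. Fold changes are Atx2 KD over Control KD. Log2 CPM used a prior count of 1. The fit was checked on simulated data. Alternatives used DESeq2 1.42.0 and limma 3.58.1. Positions are those of Ensembl release 115 (BDGP6.54), matched by FlyBase ID for all 13771 genes, since the authors' build is not known. At these depths 3 counts correspond to 0.0295 to 0.0460 CPM, for counting error only.

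Members and gene lists were chosen with earlier results of these data known. Named are the 10 members, Atx2 and bam, listed genes that passed the test, and the 8 genes with the most similar profile; FASN1, yl, boca, dsx, EcR, usp, slbo, tj, vas, Cp38 and listed genes that did not pass were named after their values were seen. Of the fixed lists, nos, Lpr1 and Lpr2 were not analysed here.

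Replicate numbers come from the sample titles. Deviations from the group means correlated across 10514 genes between same-numbered libraries (Pearson r of 0.138, 0.308 and 0.497 for numbers 1, 2 and 3). Differently numbered pairs ranged from -0.360 to 0.149, and the highest of these, Atx2 KD replicate 2 with Control KD replicate 1, was above the value for number 1. Each same-number value was over 0.1, so the fit with the number as a block is given beside results whose call or count it changes. In that fit the knockdown estimate rests on the libraries numbered 1, 2 and 3. Atx2 KD replicate 4 has no Control KD library of its number and does not enter it. Genes are not independent replicates.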

Additional observations from a re-analysis of the deposited data

Results flagged for a closer look

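Among 73 sets of 4 Atx2 KD values examined, 4 had one library far from the other 3. That is close to the rate of about 1 set in 20 that chance gives, and the sets are not independent. All 4 were replicate 2. Vm26Ac was at 12.6 CPM there, against 1.63 to 2.90 CPM in the other Atx2 KD libraries. Ir7c was at 9.33 CPM, against 2.13 to 2.57 CPM. For Vm26Ab, FBtr0079171 (Vm26Ab-RA) held 80.0% of the gene's estimated counts in replicate 2, against 85.1 to 86.1% in the others, and FBtr0345439 (Vm26Ab-RB) held 19.99%, against 13.9 to 14.9%. The last 2 are parts of the same whole. Replicate 2 was also the highest Atx2 KD library for each of the 10 vitelline membrane and yolk protein genes, though none of those was set apart by the same measure.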

How the results depend on the processing

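All 160 log2 fold changes of the members under 16 alternatives were negative, and 83 passed the threshold. The number of members called lower was 6. It was 10 with the replicate block, 0 with only the libraries numbered 1 and 2, and 1 to 8 when 1 library was left out. The number of genes called was 1396. It was 2941 with the replicate block, 2151 with DESeq2, 627 with only the libraries numbered 1 and 2, and 467 to 1454 when 1 library was left out. Of 1023 transcripts called, 8 belonged to members. These became 654 and 4 with the replicate block, 3144 and 14 with DESeq2, and 5 and 0 with only the libraries numbered 1 and 2 (5 member transcripts at an unadjusted p under 0.05). Leaving out 1 library gave 159 to 814 transcripts and 0 to 11 of members. The smaller subsets hold fewer libraries, and otherwise the cause was not tested. The share of higher calls was 42.3%, but 57.5% (811 higher, 600 lower) under upper-quartile scaling, 61.1% (688 higher, 438 lower) for log2(TPM + 1) and 61.7% (705 higher, 438 lower) for log2(TPM + 0.1). The members' share of Control KD libraries was 2.93% of counts and 5.52% of TPM. For the 37 other named genes, 490 of 592 values stayed on their side of the threshold, 94 lost and 8 gained a call, and 0 changed direction. Among member genes the block added Vm26Aa and the 3 yolk protein genes. Among member transcripts it removed 5 calls and added 1.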
